A study of Homo sapiens with 12 samples.

Results

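This account covers 9 genes of the plasminogen activator and matrix protease systems, PLAT, PLAU, PLAUR, SERPINE2, MMP2, TIMP1, TIMP2, TIMP3 and ADAMTS1, out of 55765 gene symbols counted in each library. The list was chosen by function, with 1 measured value in view, the rise of PLAT after co-treatment. Values of the 9 genes in the co-treatment experiment are therefore a description without p-values, and nothing is read from which of them were called there. The pre-treatment experiment, which the choice does not cite, was tested, although its earlier results were also known. RNA came from SH-SY5Y, a human neuroblastoma line subcloned from SK-N-SH, and every culture was differentiated with all-trans retinoic acid (ATRA) for 7 days. In the co-treatment experiment, 3 cultures received hydrogen peroxide (H2O2) together with ATRA and 3 controls received ATRA alone. In the pre-treatment experiment, H2O2 was given to 3 cultures during the 72 h that preceded ATRA, and 3 controls went without it. The H2O2 dose reads 10 mM in the deposited design text and 10 μM in the methods of the study. All cultures derive from 1 tumour cell line, and no label names separate passages or days, so p-values measure the spread between these cultures.

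Plasminogen activators are secreted serine proteases that cut plasminogen to plasmin, a protease that degrades fibrin and matrix proteins and releases matrix-bound growth factors. Tissue-type activator (PLAT) is stored and released by neurons, where it is known for roles in neurite outgrowth and synaptic plasticity, and urokinase (PLAU) acts on the cell surface through its receptor. Serpins trap these proteases, metalloproteinases of the MMP and ADAMTS families cut collagens and proteoglycans, and tissue inhibitors of metalloproteinases (TIMPs) block them and, in the case of TIMP2, also take part in the activation of MMP2.

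The 12 libraries held from 27576276 to 98287391 gene-assigned reads. Levels are given as CPM, that is, counts scaled to a common library total, with TMM factors over all 12 libraries. Pre-treatment control replicate 3 stood apart from control replicates 1 and 2. Per read assigned to a gene, 0.7997 and 0.830 reads of these latter libraries matched no annotated feature in the counting. The value was 0.2 for control replicate 3 and 0.343 to 0.462 for treated libraries. Whether such reads lay inside or outside genes was not determined. In the co-treatment libraries the same value was 0.263 to 0.429, so pre-treatment control replicates 1 and 2 had the highest values of all 12 libraries. Pre-treatment results are therefore given over all 6 libraries and without control replicate 3, where the controls are replicates 1 and 2 alone. A gene was called at an adjusted p (FDR) below 0.05 in edgeR's quasi-likelihood test. After pre-treatment, 6 of 24743 genes (0.0242%) were called over all 6 libraries, all higher, while 2776 passed an unadjusted p of 0.05, and DESeq2 called 609. Over the other 5 libraries, 6871 of 26350 genes (26.1%) were called, 3489 higher and 3382 lower. Scaling by library size alone changed this split to 1384 higher and 4892 lower and moved the median log2 fold change of all genes to -0.21.

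The noradrenergic markers of this line were present. The 14 noradrenergic marker genes summed to between 3763 and 5609 CPM per library, with none at 0 and 1 below 1 CPM in every group. The 14 mesenchymal markers, which define the substrate-adherent variant of neuroblastoma cells, summed to between 587 and 1287 CPM, with PRRX1 and ANXA1 at 0 in all co-treated libraries and 5 of the 14 below 1 CPM in each group. Schwann cell markers (6 genes) reached at most 8.14 CPM in sum, with FOXD3 at 0 throughout, and endothelial markers (4 genes) at most 1.78 CPM, with CDH5 at 0 in all groups but the pre-treated cells.

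All 9 genes were detected, at widely different levels per length of transcript. In the co-treatment controls, MMP2 (gelatinase A, a collagen-degrading metalloproteinase) had the highest level, with 62.3 CPM per kb of annotated exon. TIMP2, its inhibitor, had 43.3 CPM per kb, and TIMP1, a broad inhibitor of metalloproteinases, had 20.9. ADAMTS1, a secreted protease that cleaves aggrecan and versican, had 15.0 CPM per kb, followed by TIMP3 (3.75), which stays bound to the matrix, PLAT (3.10) and PLAUR (2.05), the urokinase receptor. PLAU (0.161) and SERPINE2 (0.0532), the protease nexin that inhibits thrombin, urokinase and tissue-type activator, were the lowest. Their raw counts were 9 to 112 for PLAU and 15 to 153 for SERPINE2 per library, so these 2 genes carry the largest counting error of the 9.

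**Figure D1:**
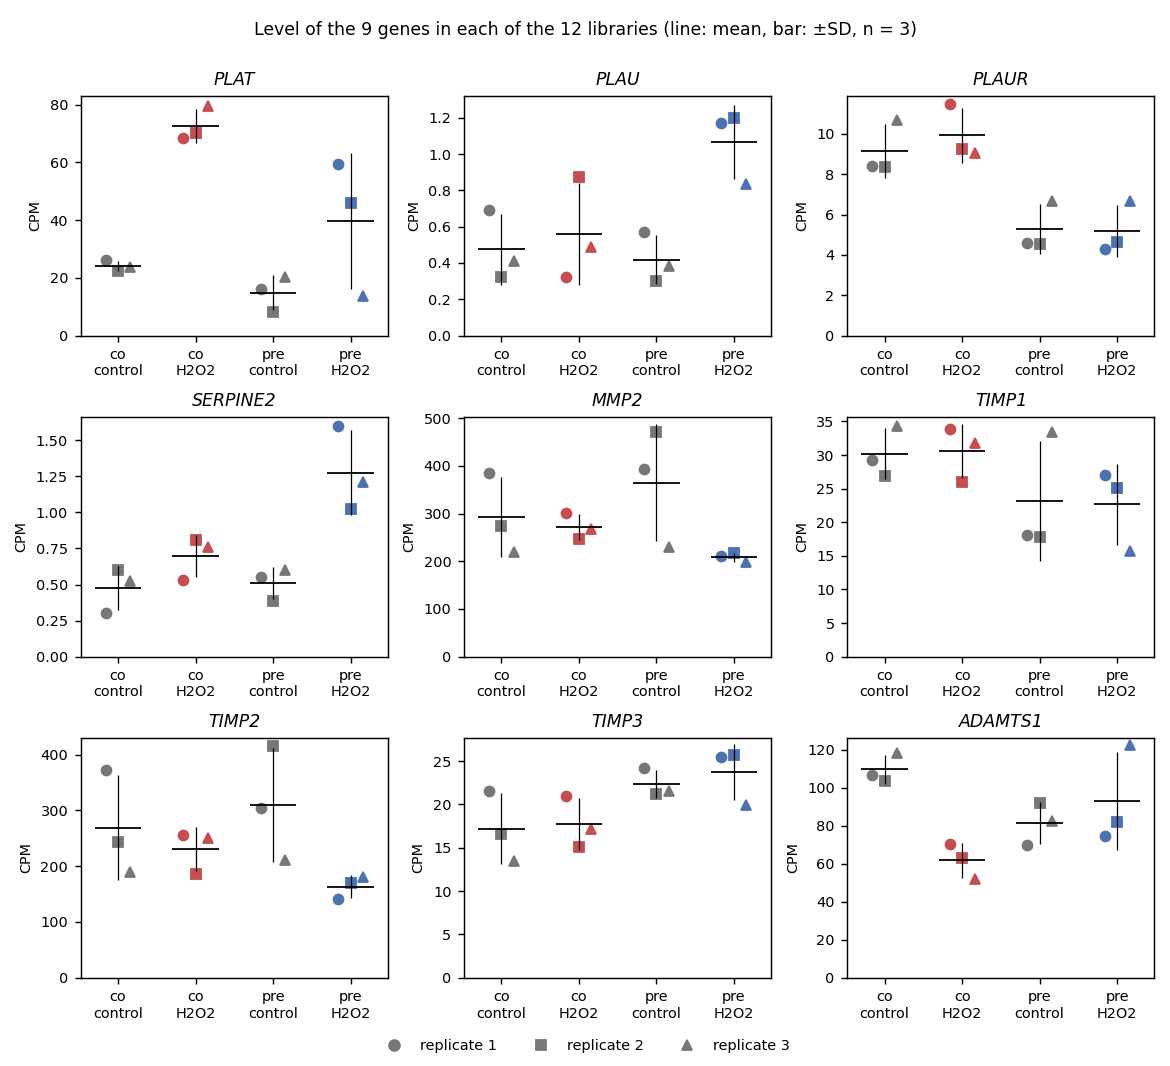
CPM of each of the 9 genes (y axes, each starting at 0) in the 4 groups, with 1 point per library shaped by replicate number, the mean as a line and the SD as a bar (n = 3). PLAT in co-treated cells sits between 68.3 and 79.5 CPM, above all co-treatment controls, whereas the pre-treated cultures spread from 13.5 to 59.5 CPM.

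PLAT (chr8:42032236-42065227 on hg19, minus strand) was about 3-fold higher in co-treated than in control cells. It had 26.1, 22.5 and 23.7 CPM in co-treatment control replicates 1 to 3 and 68.3, 70.3 and 79.5 CPM in the treated replicates. Every treated culture was above every control, and both groups were tight, with means of 24.1 ± 1.82 and 72.7 ± 5.95 CPM (SD, n = 3). The log2 fold change was 1.59 (standard error 0.13), a fold of 3.02. Among the 22089 genes tested it ranked 161 by log2 fold change, and this rise is the value on which the list was selected. In bulk RNA, a change in the share of cells of a type and a change in RNA per cell cannot be told apart.

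After pre-treatment, the cultures did not respond alike in PLAT. Control replicates 1 to 3 had 16.1, 8.23 and 20.3 CPM, and treated replicates 1 to 3 had 59.5, 46.0 and 13.5 CPM. Treated replicates 1 and 2 were above all controls, whereas treated replicate 3 lay within the control range. The log2 fold change was 1.41 (standard error 0.52, adjusted p = 0.377) over the 6 libraries and 1.73 (standard error 0.56, adjusted p = 0.0519) without control replicate 3, so PLAT was not called in either. Over these 5 libraries it passed the threshold with edgeR's exact test (adjusted p = 0.0118) and with both experiments in 1 fit (0.0142), but not with DESeq2 (0.0984) or limma-voom (0.124). Leaving out treated replicate 3 as well gave 2.103 (adjusted p = 0.00306). That is the treated culture within the control range, so its removal favours a call. Over all 13 alternatives of the fit without control replicate 3, the log2 fold change ran from 1.31 to 2.32. Ordered by mean, PLAT went from pre-treatment controls (14.9 CPM) over co-treatment controls (24.1 CPM) and pre-treated cells (39.7 CPM) to co-treated cells (72.7 CPM). Of the neighbours in this order, only pre-treated cells and co-treatment controls overlapped.

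Genes whose log2 CPM followed PLAT closely over the 12 libraries, among 10507 genes with a mean of at least 10 CPM, included SYT17 (Pearson r = 0.926), CCDC74B (0.924), KIF13A (0.915) and THBS3 (0.914). These correlations describe libraries that share 2 experiments and the treatment, and have no p. Among the other members, TIMP1 had the highest correlation with PLAT (0.617) and ADAMTS1 the lowest (-0.661).

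PLAU, the other plasminogen activator (chr10:75668935-75677254 on hg19, plus strand), did not exceed 1.199 CPM in any library. It had 0.694, 0.321 and 0.408 CPM in co-treatment controls and 0.320, 0.871 and 0.487 CPM in co-treated cells. These groups overlapped over nearly their whole range, with a log2 fold change of 0.27 (standard error 0.50). After pre-treatment, all treated cultures (1.17, 1.199 and 0.833 CPM) were above all controls (0.568, 0.300 and 0.386 CPM). The log2 fold change was 1.35 (standard error 0.41, adjusted p = 0.320) over the 6 libraries and 1.31 (standard error 0.40, adjusted p = 0.0436) without control replicate 3, where PLAU was called as higher. That call was lost on leaving out control replicate 2 (adjusted p = 0.230), treated replicate 1 (0.1196) or treated replicate 2 (0.114), with limma-voom (0.0607), with both experiments in 1 fit (0.0757) and with scaling by library size alone (0.0845). PLAU shares 31% of its annotated exon bases with the antisense gene C10orf55, which had 0 to 5 counts per library. The library kit keeps strand, but the strand setting of the counting is not given in the sources used here.

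SERPINE2 (chr2:224839762-224904035 on hg19, minus strand), an inhibitor of both activators, moved with PLAU after pre-treatment. Pre-treatment controls had 0.550, 0.386 and 0.601 CPM and treated cultures 1.60, 1.02 and 1.21 CPM. The groups did not overlap, with or without control replicate 3. The log2 fold change was 1.31 (standard error 0.38, adjusted p = 0.320) over the 6 libraries and 1.47 (standard error 0.37, adjusted p = 0.0214) without control replicate 3. SERPINE2 was no longer called when control replicate 2 or treated replicate 1 was left out as well (adjusted p of 0.1405 and 0.0798). In the co-treatment experiment, controls had 0.306, 0.599 and 0.525 CPM and treated cells 0.533, 0.807 and 0.759 CPM, with overlapping groups and a log2 fold change of 0.58 (standard error 0.43).

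Because PLAU and SERPINE2 were the members called as higher after pre-treatment, the sequence in front of their starts is shown. Windows of 250 bases before RefSeq starts (table build GRCh38.p14) were matched to hg19 and are printed only up to the first annotated exon. Both genes have a pair of RefSeq starts, and all 4 windows are given. Capitals mark GC boxes (GGGCGG), the letters bound by Sp1-type factors, and the core of the antioxidant response element (TGACNNNGC), the letters bound by NRF2, a factor activated by oxidants, each on either strand.
PLAU, first start, chr10:75670118-75670362, plus strand: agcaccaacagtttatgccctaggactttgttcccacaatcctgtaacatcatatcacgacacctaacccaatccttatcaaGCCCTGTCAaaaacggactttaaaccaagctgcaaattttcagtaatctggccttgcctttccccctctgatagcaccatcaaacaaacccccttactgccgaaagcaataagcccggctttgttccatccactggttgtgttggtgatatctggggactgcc
PLAU, second start, chr10:75670640-75670861, plus strand: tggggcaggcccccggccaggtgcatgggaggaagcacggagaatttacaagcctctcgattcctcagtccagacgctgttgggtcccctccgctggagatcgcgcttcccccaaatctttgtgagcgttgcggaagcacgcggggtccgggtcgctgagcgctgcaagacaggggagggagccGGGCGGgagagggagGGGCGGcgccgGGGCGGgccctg
SERPINE2, first start, chr2:224903522-224903607, minus strand: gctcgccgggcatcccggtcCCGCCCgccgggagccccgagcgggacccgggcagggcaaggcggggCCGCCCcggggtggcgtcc
SERPINE2, second start, chr2:224896196-224896445, minus strand: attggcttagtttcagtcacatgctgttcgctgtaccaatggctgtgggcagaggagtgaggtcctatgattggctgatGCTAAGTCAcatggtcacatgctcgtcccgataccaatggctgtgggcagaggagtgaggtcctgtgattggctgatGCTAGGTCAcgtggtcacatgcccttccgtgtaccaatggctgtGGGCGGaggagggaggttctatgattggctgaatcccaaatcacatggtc

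The window of the second PLAU start holds 3 GC boxes, that of the first SERPINE2 start 2 and that of the second SERPINE2 start 1, and 42.3% of 27305 promoter windows of 250 bases hold at least 1. The antioxidant response element core matched once in front of the first PLAU start, 168 bases before it, and at 171 and 94 bases before the second SERPINE2 start, beside 11.0% of all windows with a match. The windows of PLAU, SERPINE2, PLAUR, TIMP1 and TIMP3 were also searched on both strands for an AP-1 site (TGANTCA, present in 6.60% of all windows), a retinoic acid receptor half-site (AGGTCA, 12.1%) and a TATA box (TATAAA, 11.1%). Among these windows an AP-1 match was found in that of PLAUR, 186 bases before the start. The search used all 250 bases of each window, and the PLAUR window begins inside an annotated PLAUR exon. A half-site match lay 91 bases before the second SERPINE2 start, inside 1 of the antioxidant response element cores. These matches describe letters in the windows, and binding was not measured. The windows of PLAT, MMP2, TIMP2 and ADAMTS1 were not analysed here.

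PLAUR, the urokinase receptor (chr19:44150247-44174699 on hg19, minus strand), differed more between the experiments than with H2O2. In the co-treatment experiment, controls had 8.42, 8.34 and 10.7 CPM and treated cells 11.5, 9.25 and 9.03 CPM, a log2 fold change of 0.12 (standard error 0.18). In the pre-treatment experiment, controls had 4.59, 4.54 and 6.69 CPM and treated cells 4.27, 4.62 and 6.65 CPM. All 6 co-treatment libraries were above all 6 pre-treatment libraries, and within each experiment the groups overlapped. The pre-treatment log2 fold change was -0.03 (standard error 0.28, adjusted p = 0.975) over the 6 libraries and 0.21 (standard error 0.24, adjusted p = 0.554) without control replicate 3, where its sign turned (-0.01) under scaling by library size alone.

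**Figure D2:**
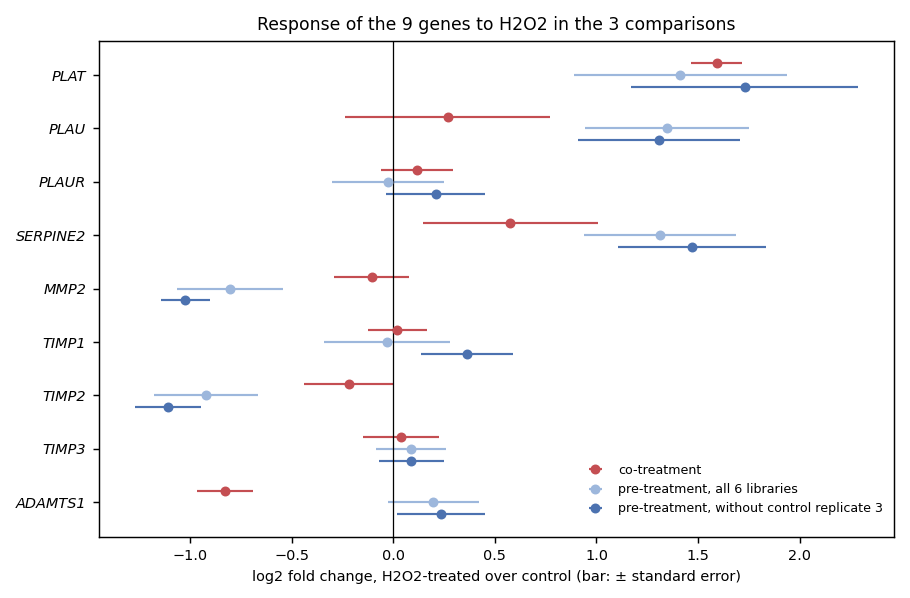
Log2 fold change of treated over control cells (x axis) with its standard error for each of the 9 genes, in the co-treatment fit and the pre-treatment fits with and without control replicate 3. PLAT lies between 1.41 and 1.73 in all 3, PLAU and SERPINE2 lie above 1.3 after pre-treatment, MMP2 and TIMP2 lie near -1 after pre-treatment, and ADAMTS1 is negative after co-treatment alone (-0.83).

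MMP2 (chr16:55423612-55540603 on hg19, plus strand) and TIMP2 (chr17:76849059-76921469 on hg19, minus strand) were lower in all pre-treated cultures than in all controls. MMP2 had 393, 472 and 231 CPM in pre-treatment control replicates 1 to 3 and 211, 217 and 198 CPM in the treated replicates. TIMP2 had 304, 416 and 212 CPM in the controls and 141, 169 and 180.5 CPM in the treated cells. TIMP2 shares 5.91% of its exon bases with an antisense gene and 3.61% with a gene on the same strand. MMP2 shares 3.7% with a gene on the same strand. In both genes control replicates 1 and 2 were far above the treated cultures, whereas control replicate 3 was only just above them. Over all 6 libraries, the log2 fold change was -0.81 for MMP2 (standard error 0.26, adjusted p = 0.326) and -0.92 for TIMP2 (standard error 0.26, adjusted p = 0.320), and neither was called, although DESeq2 called TIMP2 (adjusted p = 0.0410). With that library left out, both were called as lower, MMP2 with a log2 fold change of -1.02 (standard error 0.12, adjusted p = 0.00159) and TIMP2 with -1.11 (standard error 0.16, adjusted p = 0.00336). Leaving out any further library kept both calls (adjusted p of at most 0.0159 for MMP2 and 0.0292 for TIMP2).

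In the co-treatment experiment the same 2 genes differed between control cultures more than with H2O2. MMP2 had 386, 274.5 and 219.5 CPM in controls and 301, 248 and 267 CPM in treated cells, and TIMP2 had 373, 244 and 190 CPM in controls and 256, 186 and 251 CPM in treated cells. Treated values lay within the control range in both genes, apart from TIMP2 in treated replicate 2 (186 CPM), just below it. The log2 fold changes were -0.11 (standard error 0.18) for MMP2 and -0.22 (standard error 0.22) for TIMP2, and both values turned positive in some alternatives (up to 0.14 and 0.09).

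MMP2 and TIMP2 followed each other from library to library, with a Pearson correlation of log2 CPM of 0.946 over the 12 libraries, which share experiments and depth. The ratio of MMP2 to TIMP2 was lowest in co-treatment control replicate 1 (1.03) and highest in pre-treated replicate 1 (1.5), while MMP2 itself ranged from 198 to 472 CPM and TIMP2 from 141 to 416 CPM. SERPINE2 ran opposite to TIMP2 over the same libraries (r = -0.868).

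**Figure D3:**
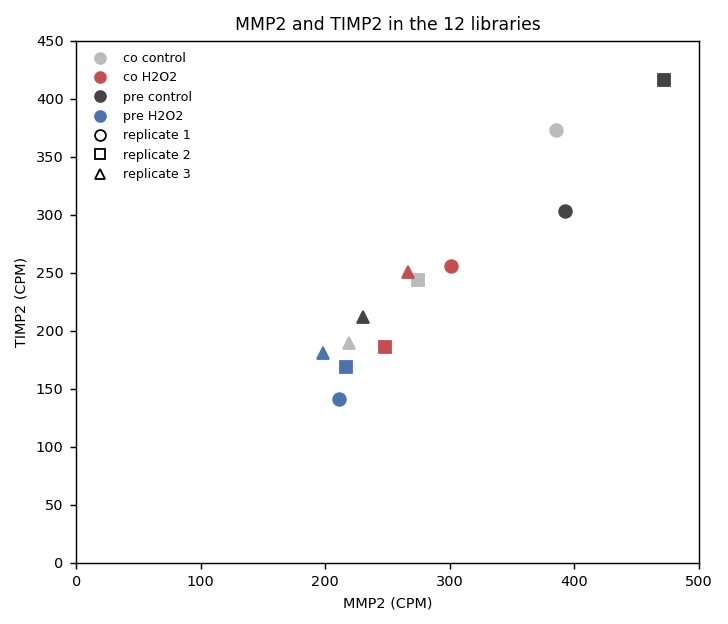
TIMP2 (y axis, CPM) against MMP2 (x axis, CPM) in each of the 12 libraries, coloured by group and shaped by replicate number. The libraries lie along 1 line, with the 3 pre-treated cultures at the low end (198 to 217 CPM of MMP2) and pre-treatment control replicate 2 at the high end (472 CPM).

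TIMP1 (chrX:47441807-47446188 on hg19, plus strand) was not called in either experiment. In the co-treatment experiment it had 29.3, 26.9 and 34.4 CPM in controls and 33.9, 26.1 and 31.9 CPM in treated cells, a log2 fold change of 0.02 (standard error 0.15). Pre-treatment controls had 18.1, 17.8 and 33.5 CPM and treated cells 27.0, 25.2 and 15.8 CPM. Control replicate 3 was the highest of these 6 libraries and treated replicate 3 the lowest. Over all 6 libraries the log2 fold change was -0.03 (standard error 0.31, adjusted p = 0.974), and without control replicate 3 it was 0.36 (standard error 0.23, adjusted p = 0.265). When treated replicate 3 was left out as well, TIMP1 passed the threshold (0.53, adjusted p = 0.0154).

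TIMP3 (chr22:33197691-33259028 on hg19, plus strand) was not called in either experiment. It had 21.6, 16.6 and 13.4 CPM in co-treatment controls and 21.0, 15.1 and 17.2 CPM in co-treated cells. In the pre-treatment experiment it had 24.2, 21.3 and 21.6 CPM in controls and 25.4, 25.8 and 20.0 CPM in treated cells. All these groups overlapped, and the log2 fold changes were 0.04 (standard error 0.19) after co-treatment, 0.09 (standard error 0.17, adjusted p = 0.862) over the 6 pre-treatment libraries and 0.09 (standard error 0.16, adjusted p = 0.716) without control replicate 3, where it was -0.13 under scaling by library size alone.

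ADAMTS1 (chr21:28208074-28217728 on hg19, minus strand) was lower in all co-treated cultures. Controls had 106.9, 103.7 and 118 CPM and treated cells 70.2, 63.2 and 51.9 CPM, with means of 109.7 ± 7.66 and 61.7 ± 9.22 CPM (SD, n = 3). The groups were far apart, and controls exceeded treated cells 1.78-fold, a log2 fold change of -0.83 (standard error 0.14). After pre-treatment the groups overlapped, with 69.7, 91.9 and 82.6 CPM in controls and 74.8, 82.2 and 123 CPM in treated cells. The log2 fold change was 0.20 (standard error 0.22, adjusted p = 0.755) over the 6 libraries and 0.23 (standard error 0.22, adjusted p = 0.451) without control replicate 3. It depended on treated replicate 3, the highest of all pre-treatment libraries, and without that library it was -0.06 over the remaining 5 libraries and -0.05 over the remaining 4.

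Across the 9 genes, 2 were among the 132 of 22089 genes called after co-treatment (0.598%), PLAT higher and ADAMTS1 lower. Nothing is read from this count, since PLAT's rise entered the choice of the list. The same 2 genes had groups that did not overlap, as had 6.66% of all genes with treated cells above and 7.31% with treated cells below controls. ADAMTS1 dropped out, leaving 1 gene, when control replicate 2, treated replicate 2 or treated replicate 3 was left out, and with both experiments in 1 fit neither was called. Over the 6 pre-treatment libraries 0 of the 9 were called, beside 0.0242% of all genes. An unadjusted p of 0.05 was passed by 5 of the 9, beside 2776 of all 24743 genes. By edgeR's exact test the count was also 0 and by DESeq2 it was 1. Over 5 libraries, 4 of the 9 were called, 2 higher (13.2% of all genes) and 2 lower (12.8%). The median log2 fold change of the 9 genes was then 0.23, beside 0.01 over all genes tested. In the 6 libraries, 2 genes of the list had all treated cultures above all controls (8.45% of all genes) and 2 had all treated below (7.93%). Over 5 libraries these counts were also 2 and 2, beside 27.9% and 29.9% of all genes.

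Treated replicate 3 of the pre-treatment experiment had the lowest level of its group in PLAT, PLAU, TIMP1, TIMP3 and MMP2. It had the highest in PLAUR, TIMP2 and ADAMTS1, and a middle level in SERPINE2. Among 3 replicates an end position is common, and some gaps were small (MMP2, 198 against 211 and 217 CPM). Replicate 1 was also at an end in PLAT, PLAUR, SERPINE2, TIMP1, TIMP2 and ADAMTS1. In proportion, replicate 3 lay furthest from the other treated replicates in PLAT (13.5 against 46.0 and 59.5 CPM). Treated replicate 3 had 78304452 reads on genes, between those of the other treated replicates (98287391 and 68374246).

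The rest of the plasminogen and matrix protease systems was followed in 125 further genes. After co-treatment, 91 of them were tested and 2 rose (0.335% of all genes did), while none fell (0.263%). ANXA2, whose protein binds plasminogen and PLAT at the cell surface, had 27.98, 29.7 and 38.1 CPM in controls and 51.5, 53.1 and 62.8 CPM in treated cells, a log2 fold change of 0.81 (standard error 0.15, adjusted p = 0.0297). All treated cultures were above all controls. ANXA2 has processed pseudogenes, so part of its reads could have been assigned elsewhere. Its call was lost on leaving out control replicate 2 (adjusted p = 0.188) or any 1 treated replicate (0.0629 to 0.284), and with both experiments in 1 fit (0.710), which called 3 genes in all.

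Plasminogen itself (PLG) had 0 to 4 reads per library, and S100A10, the partner of ANXA2 in plasminogen binding, had 0 to 7. Neither could be tested. Per length, 2 abundant genes of these systems were ENO1 (the glycolytic enzyme enolase, also a plasminogen receptor, 153 CPM per kb in co-treatment controls) and ADAMTS9 (a proteoglycan-cleaving relative of ADAMTS1, 103 CPM per kb). MMP16, a membrane-bound metalloproteinase, had 21.6 CPM per kb, against 5.20 CPM per kb for MMP14, its relative that activates MMP2 together with TIMP2. The genes with the highest mean CPM over the 12 libraries in the remaining groups were ADAM22 (323 CPM), a neuronal ADAM protein without protease activity, the lysosomal protease CTSB (302 CPM), the procollagen processing enhancer PCOLCE (206 CPM) and the collagen chaperone SERPINH1 (83.3 CPM).

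After pre-treatment, none of the 96 genes tested was called over the 6 libraries by edgeR's quasi-likelihood test. An unadjusted p of 0.05 was passed by 22 of the 96, beside 2776 of all 24743 genes. With control replicate 3 left out, 18 rose (13.2% of all genes) and 12 fell (12.8%), with a median log2 fold change of 0.02 beside 0.01 over all genes. By group, 4 of 8 tested genes of plasminogen binding and clearance rose and 1 fell, and 3 of 14 serpins and macroglobulins rose and 1 fell. Of the 12 other matrix metalloproteinases tested, 1 rose (MMP23B, which has a near-identical copy that could share its reads) and 1 fell (MMP15), and of 7 metalloproteinase inhibitors and inducers 1 rose (SPOCK2) and 1 fell (TIMP4). Among ADAMTS and ADAMTS-like genes, 2 of 21 rose and 4 fell, among ADAM genes 1 of 14 rose and 2 fell, and among other matrix proteases 6 of 20 rose and 2 fell.

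ANXA2, PRSS23 and HTRA1 led the genes that rose when ordered by FDR. ANXA2 had 15.4 and 12.4 CPM in control replicates 1 and 2, 31.0 CPM in control replicate 3 and 91.8, 75.7 and 57.6 CPM in treated cells, a log2 fold change of 2.46 (standard error 0.22, adjusted p = 9.03e-04) without control replicate 3. PRSS23, a serine protease, rose by 2.97 (standard error 0.35, adjusted p = 0.00159) on the log2 scale and HTRA1, a secreted serine protease that degrades fibronectin and proteoglycans, by 3.19 (standard error 0.48, adjusted p = 0.00367). All 3 genes had control replicate 3 below every treated culture, with PRSS23 at 1.25 CPM there and at 4.77 to 5.72 CPM in treated cells.

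Among the genes that fell, LRP1, ADAMTSL4 and ECE1 had the smallest adjusted p. LRP1, the endocytic receptor that clears complexes of PLAT or PLAU with their inhibitors, had 410 and 448 CPM in control replicates 1 and 2, 87.2 CPM in control replicate 3 and 78.5, 108 and 106 CPM in treated cells. Control replicate 3 thus lay within the treated range, and the log2 fold change was -2.11 (standard error 0.15, adjusted p = 6.18e-04) without it and -1.69 (standard error 0.52, adjusted p = 0.320) with it. LRP1 had 94.3 to 241 CPM in the co-treatment libraries, below control replicates 1 and 2 of the pre-treatment experiment. In ADAMTSL4, control replicate 3 was just below all treated cells, with 8.94 and 9.52 CPM in control replicates 1 and 2, 2.71 CPM in control replicate 3 and 2.88 to 3.61 CPM in treated cells (log2 fold change -1.52 without control replicate 3, adjusted p = 0.00204). ECE1, the endothelin-converting metalloprotease, fell by 1.12 (standard error 0.15, adjusted p = 0.00239) on the log2 scale, and its level in control replicate 3 (61.6 CPM) lay above all treated cells (36.5 to 47.3 CPM). These 6 genes stayed called on leaving out any further library.

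**Figure D4:**
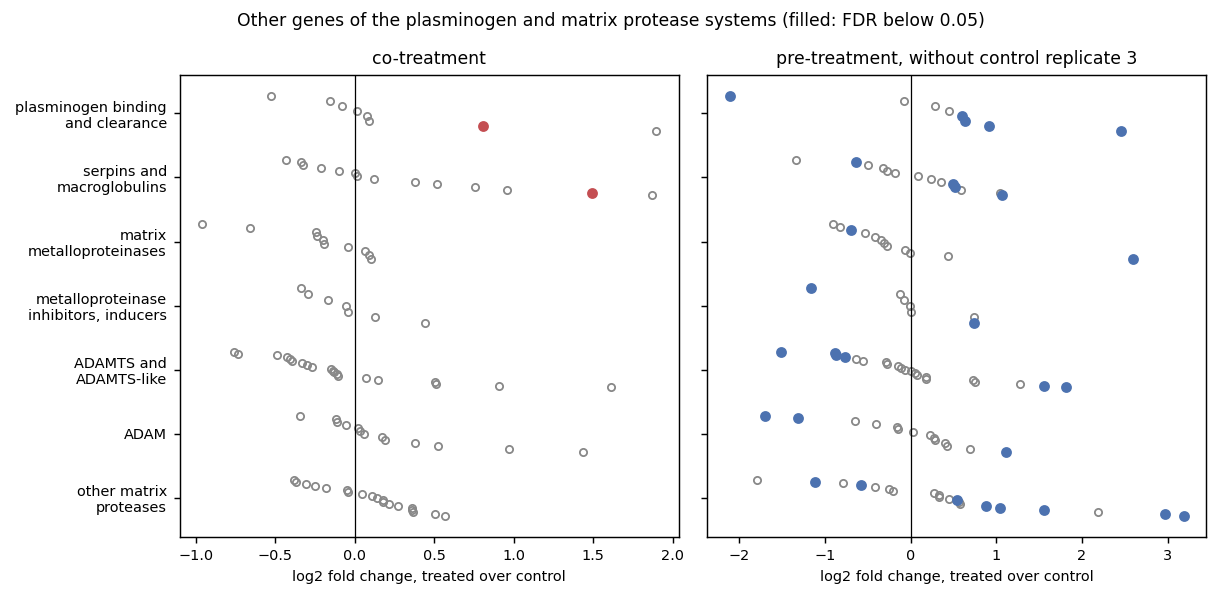
Log2 fold change of treated over control cells (x axes, on different ranges) for the other genes of the plasminogen and matrix protease systems, by group, after co-treatment (left) and after pre-treatment without control replicate 3 (right). Each point is 1 gene and filled points passed an FDR of 0.05, 2 genes on the left and 30 on the right.

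Marker levels moved beside these results. VIM, an intermediate filament gene and mesenchymal marker, rose after co-treatment from 7.27 ± 2.25 to 16.2 ± 1.38 CPM (SD, n = 3, log2 fold change 1.16, adjusted p = 0.0272). Over all 6 libraries of the pre-treatment experiment it rose from 4.01 ± 1.03 to 21.5 ± 1.75 CPM (SD, n = 3, log2 fold change 2.42, adjusted p = 0.0442). The co-treatment call was lost on leaving out control replicate 2 or 3 or any 1 treated replicate (adjusted p of 0.0664 to 0.205), with scaling by library size alone (0.0625) and with both experiments in 1 fit (0.163). The call over the 6 libraries was lost on leaving out any 1 library other than control replicate 3 (0.178 to 0.408), with limma-voom (0.0797) and with the replicate number as a block (0.491). Of the 12 mesenchymal markers tested, VIM alone was called after co-treatment (0.335% of all genes rose), and 8 had a positive log2 fold change. After pre-treatment without control replicate 3, 4 rose (13.2% of all genes) and 1, NOTCH2, fell (12.8%). The summed level of the 14 mesenchymal markers overlapped between the co-treatment groups, with 796 to 1021 CPM in controls and 985 to 1013 in treated cells. In the pre-treatment experiment it was lower in all treated cells (587 to 970 CPM) than in all controls (990 to 1287 CPM). A sum gives the most weight to the most abundant genes, and most single markers went the other way. Of the 12 tested, 8 had a positive log2 fold change over the 6 libraries (median 0.332). Without control replicate 3, 10 of the 12 did (median 0.438). Over the 6 libraries, 1 of 7 fibroblast markers tested was called, as higher (0.0242% of all genes). The log2 fold change was positive in 5 of these 7. Of 8 fibroblast markers tested without control replicate 3, 3 rose (13.2% of all genes) and 1 fell (12.8%). In this fit 6 of the 8 had a positive log2 fold change, with a median of 1.58. The summed level of the 8 fibroblast markers was 201 to 234 CPM in pre-treatment controls and 222 to 279 in treated cells. The part of these markers, and of the reads on no annotated feature, in the changes of PLAU, SERPINE2, MMP2 and TIMP2 was not tested.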

How the data were processed

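After ribosomal RNA depletion, total RNA of 12 cultures was sequenced in a strand-preserving way. The study's methods name Cutadapt for trimming low-quality bases, HISAT2 for alignment to hg19 and HTSeq for counting per gene. The authors deposited raw counts for each library, unnormalized and unfiltered. Their 5 closing entries for reads assigned to no gene, 40.0% to 59.9% of all entries, were left out. The deposited tables of fold changes and p-values hold the authors' own comparisons and were not used.

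The software was edgeR 4.0.16, together with DESeq2 1.42.0 and limma 3.58.1, under R 4.3.3. Genes entered a fit when at least as many libraries as in the smaller group reached the CPM of 5 counts in the smallest library (0.181 for co-treatment, 0.1197 for pre-treatment). Treated and control libraries were compared with the quasi-likelihood test on TMM-scaled counts, with Benjamini-Hochberg adjustment over all genes tested and a threshold of 0.05. Log2 CPM used a prior count of 2. The script was tested on simulated data. Positions and exon lengths come from GENCODE v44 lifted to hg19, in which 179 of 180 listed genes matched. 1 endothelial marker was not analysed here. Some results of single genes are not reported here.

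The members and gene lists were chosen with earlier results of these data known. Other pathway genes were named when called after co-treatment or over the 6 pre-treatment libraries, when among the 3 smallest FDR per direction without control replicate 3, or when highest in CPM in their group. MMP14, MMP23B, MMP15, SPOCK2, TIMP4, PLG, S100A10, VIM and C10orf55 were named after their values were seen. Alternatives comprised DESeq2, limma-voom, the exact test of edgeR, RLE factors, library size alone, no filter, a replicate block, 1 fit over both experiments, a fold threshold and each library left out. Those for the genes outside the list were added after seeing the data.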

Additional observations from a re-analysis of the deposited data

How the results depend on the processing

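The number of genes called after co-treatment (132) was 339 with edgeR's exact test, 338 with DESeq2, 80 with library size alone (57 higher, 23 lower), 535 without a filter, 3 with both experiments in 1 fit, and 18 to 223 with 1 library left out. Of the 9 genes, 2 were called under these settings except with 1 fit over both experiments (0) and with 1 library left out (1 to 2). Over the 6 pre-treatment libraries, 6 genes were called, and 281 with the exact test, 609 with DESeq2, 0 with limma-voom (2445 at an unadjusted p under 0.05), 1 with library size alone, 319 without a filter, 68 with 1 fit over both experiments and 0 to 6871 with 1 library left out. Of the 9 genes, 1 was called by DESeq2 and 0 to 4 with 1 library left out. Without control replicate 3, 6871 genes were called, and 2952 with a fold threshold and 1677 to 8577 with a further library left out, when 2 to 6 of the 9 were called.

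The labels give the groups the same replicate numbers, without saying whether these pair the cultures. Deviations of same-numbered libraries correlated by -0.0733 to -0.0626 (co-treatment), -0.279 to 0.0295 (6 pre-treatment libraries) and -0.00274 and 0.0695 (without control replicate 3). These values show no sign of pairing, but so few pairs do not settle it. A replicate block gave 181 calls after co-treatment, 0 over the 6 pre-treatment libraries (1957 at an unadjusted p under 0.05) and 10755 without control replicate 3, where 6 of the 9 genes were called. In that last fit treated replicate 3 has no control of its number and adds nothing to the fold changes. With the block, the log2 fold change of TIMP1 was 0.0080 over the 6 libraries, and those of PLAUR and ADAMTS1 were -0.013 and -0.0011 without control replicate 3, with signs opposite to those reported.

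Other sign changes in the pre-treatment experiment concerned genes that were not called. With 1 of the 6 libraries left out, PLAUR ranged from -0.25 to 0.21, TIMP1 from -0.19 to 0.36 and ADAMTS1 from -0.055 to 0.34. Without control replicate 3 and a further library, PLAUR ranged from -0.047 to 0.33 and ADAMTS1 from -0.047 to 0.45, and with library size alone PLAUR was -0.0063 and TIMP3 -0.13. After co-treatment, PLAU, PLAUR, MMP2, TIMP1, TIMP2 and TIMP3 had values on both sides of 0 among the alternatives. The cause was not tested. Depth limits PLAU and SERPINE2, with at most 112 and 153 counts per library.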
